A study of Homo sapiens with 6 samples.

Results

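The 10 genes described here encode proteins of the BCL2 family, which control the mitochondrial step of apoptosis. They were taken by symbol from a table of 58735 genes: the pro-survival members BCL2L1 and MCL1, the pore-forming effectors BAX and BAK1, and the BH3-only members BBC3, PMAIP1, BID, BCL2L11, BIK and BAD. All 10 passed the filter on low counts and were among the 16577 genes tested. The RNA came from Huh7, an established human hepatocellular carcinoma line grown in RPMI-1640 with 10% fetal bovine serum. One group carried a short hairpin RNA against ITGB5, the integrin beta 5 subunit (labelled shITGB5, 3 libraries), and the other a control hairpin (shcontrol, 3 libraries), so that both groups carry a hairpin and are compared without an untreated group. The hairpin sequences, the number of hairpins or clones, the time after their introduction and the origin of the 3 libraries of a group are not stated in the labels, and each p-value therefore reflects the variation among these 6 libraries, some or all of which could be technical. The columns coded S and NC in the table were taken as the ITGB5 hairpin and the control, although no label explains the codes.

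In a healthy cell, pro-survival proteins hold the effectors BAX and BAK in check at the outer mitochondrial membrane. BH3-only proteins are made or activated by stress, and they bind the pro-survival proteins or the effectors through a short helix, the BH3 domain. Once freed, the effectors open pores that let out cytochrome c, which activates caspases. Hepatocytes and hepatoma cells are known to depend on BCL-XL, the product of BCL2L1, and on MCL1. Much of the control of the family acts on the proteins, which were not measured here.

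The libraries held 15777922 to 18011313 counts. ITGB5, the targeted gene, was lower in all 3 hairpin libraries (173.1, 181.0 and 174.3 CPM, the count scaled to the library total with TMM factors) than in all 3 controls (204.7, 213.8 and 216.9 CPM), a fall of 16.8% (edgeR adjusted p = 2.85e-11), and an exact permutation test (two-sided) returned p = 0.1, the least possible with 3 libraries against 3. Of 8 hepatocyte and hepatoma markers, all were measured, and their summed level was 5899 to 6023 CPM in the controls and 6633 to 6766 CPM with the hairpin. The fibroblast and stellate list summed to 288.9 to 303.3 and 322.5 to 332.8 CPM, most of it COL1A2 and LUM, with DCN at 0 to 4 counts a library. The endothelial list summed to 3.55 to 5.64 and 4.11 to 5.43 CPM, most of it PECAM1, with KDR at 0 in every library. The blood and immune list summed to 37.6 to 37.9 and 40.2 to 42.7 CPM, with CD3E at 0 or 1 count. Most of that sum was CD14, at means of 30.7 and 34.6 CPM, and LYZ, at 6.85 and 6.24 CPM. Mitochondrial genes took 3.46% to 3.54% of the control counts and 3.24% to 3.29% of the hairpin counts. Apart from the endothelial sum, whose ranges overlapped, these marker sums and the mitochondrial share moved with the groups. Their part in the results below was not tested.

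Of the 10 members, 3 rose (BCL2L1, BBC3 and PMAIP1), 2 fell (BCL2L11 and BID) and 5 did not pass the test (edgeR quasi-likelihood test, Benjamini-Hochberg adjusted over all genes tested, threshold 0.05). That is 50% of the members, against 15.5% of all genes tested, of which 8.54% rose and 6.96% fell. Because the members were chosen with earlier results of these data known, such shares describe the list and do not test it. The count of 5 fell to 2 (BCL2L1 and BBC3) without shcontrol replicate 1, and to 3, all higher with the hairpin, in limma on log2(FPKM + 1). The same 5 members were those whose groups of libraries did not overlap, against 28.5% of all genes tested. The members' median change was 0.07 on the log2 scale and their median absolute change 0.15, against 0.11 for the absolute change of all genes tested. By role, 1 of 2 pro-survival members, 0 of 2 effectors (0 also at DESeq2's adjusted p under 0.05, and 1, BAX, at an unadjusted edgeR p under 0.05) and 4 of 6 BH3-only members passed, the last in both directions.

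**Figure D1:**
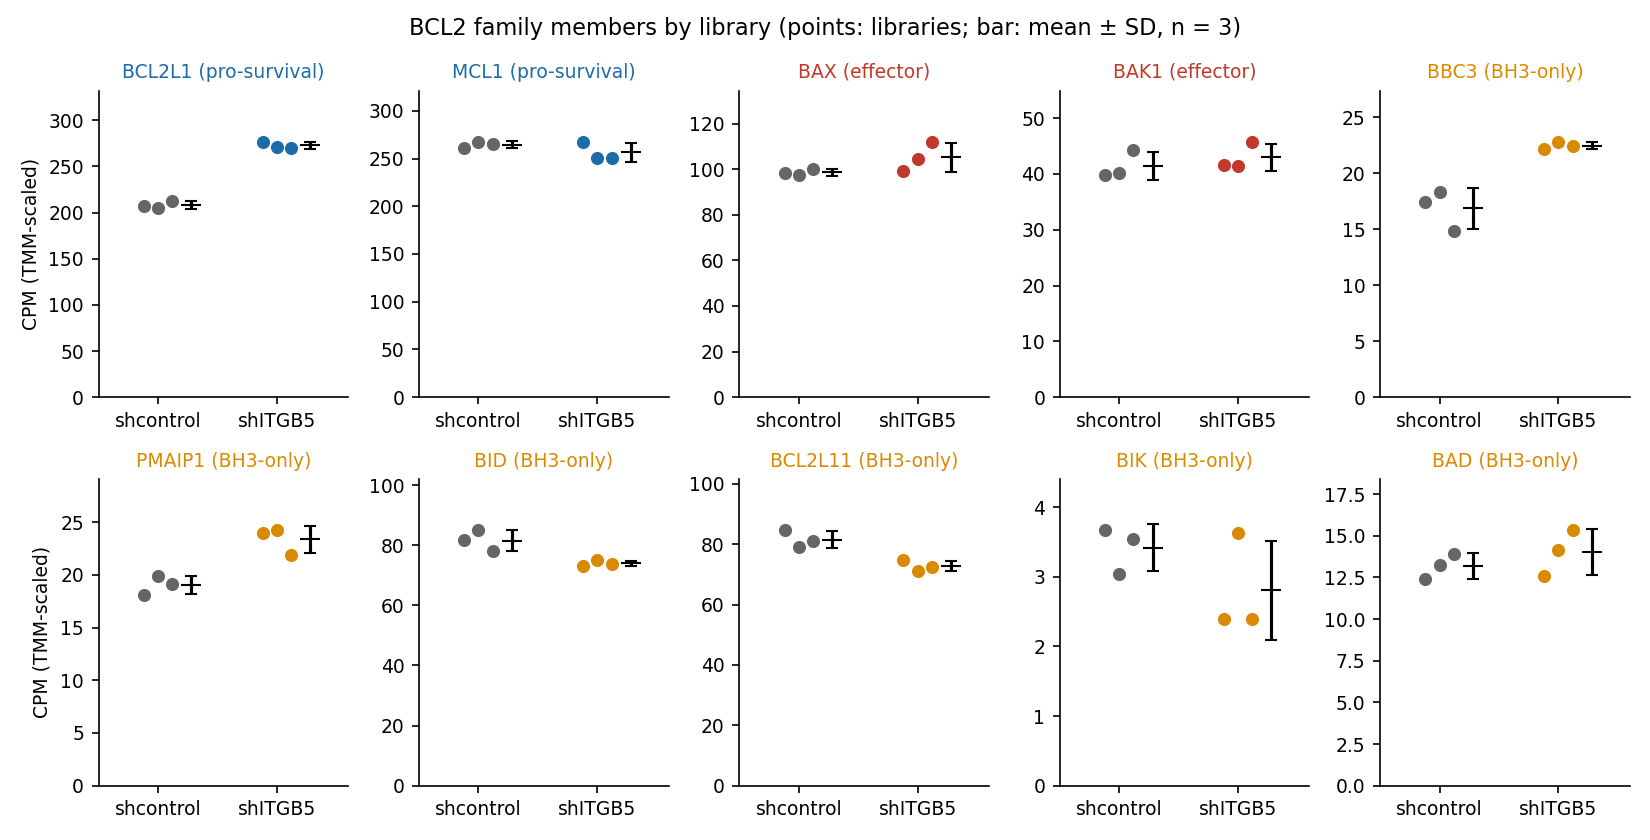
Level of each of the 10 members in every library, in TMM-scaled CPM on axes that start at 0, with points for libraries and bars for the mean ± SD (n = 3). The 2 groups are apart for BCL2L1, BBC3, PMAIP1, BID and BCL2L11 and overlap for the other 5 genes.

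BCL2L1 RNA was higher with the ITGB5 hairpin, whereas no change of MCL1 passed the test. BCL2L1 (ENSG00000171552, chromosome 20, 31664452 to 31723989, minus strand, GRCh38) encodes BCL-XL, which binds BH3-only proteins and effectors, and a short pro-apoptotic form by splicing. It lay at 207.0, 204.9 and 212.5 CPM in the controls and at 276.8, 271.0 and 270.1 CPM with the hairpin. The lowest hairpin library was well above the highest control. The mean went from 208.1 ± 3.91 to 272.6 ± 3.66 CPM (SD, n = 3 each), a rise of 31.0% or 0.39 on the log2 scale with an SE of 0.030 (edgeR adjusted p = 8.64e-22). In bulk RNA, as here, a change in the number of cells with a transcript and one in its amount per cell cannot be told apart. Among all genes tested it ranked 43 by p and 1787 by the size of its change. The 9 annotated transcripts of BCL2L1, the long and short forms included, cannot be told apart in gene counts.

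The promoters of the 5 members whose RNA moved are shown beside their values, as RefSeq gives them for GRCh38.p14, each from 250 bases before to 50 after 1 annotated start. Capitals mark matches on either strand to the letters TGANTCA (AP-1), TGACGT (core of the cAMP response element), GGGCGG (GC box), CACGTG (E-box), CCGGAAG (ETS) and TTGCATCA (the composite site of CHOP and ATF4). RefSeq promoters were found for 8 of the 10 members, with MCL1 and BIK the others. The window of BCL2L1 (chr20:31723914-31724213, minus strand) ends in a start 1065 bases upstream of that of the principal GENCODE transcript, and is 52.0% G and C, against a median of 58.7% over 35116 promoters. It holds 1 ETS match, which 10.3% of promoters have, and no GC box, which 45.0% have.
BCL2L1 promoter: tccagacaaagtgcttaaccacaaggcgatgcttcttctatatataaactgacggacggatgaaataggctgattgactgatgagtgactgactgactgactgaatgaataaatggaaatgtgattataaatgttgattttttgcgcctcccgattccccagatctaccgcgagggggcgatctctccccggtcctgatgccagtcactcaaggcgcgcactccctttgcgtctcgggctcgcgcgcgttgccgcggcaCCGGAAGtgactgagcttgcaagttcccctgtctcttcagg

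MCL1 (ENSG00000143384, chromosome 1, 150574551 to 150579738), a short-lived protein that holds back BAK and binds BIM and NOXA, lay at 260.7, 267.7 and 265.3 CPM in the controls and at 267.6, 250.4 and 251.0 CPM with the hairpin. The first hairpin library sat among the controls and the other two below them. The mean went from 264.6 ± 3.58 to 256.3 ± 9.77 CPM (SD, n = 3 each), a log2 change of -0.05 with a 95% interval of -0.10 to 0.01 (edgeR adjusted p = 0.354). That interval does not reach the change of BCL2L1.

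No effector passed the test. BAX (ENSG00000087088, chromosome 19, 48954815 to 48961798), which moves from the cytosol into the mitochondrial membrane, lay at 98.2, 97.5 and 100.3 CPM in the controls and at 99.3, 104.4 and 112.1 CPM with the hairpin. The first hairpin library lay within the range of the controls and the other two above it, and the hairpin group spread more widely (SD 6.45 against 1.44 CPM). The log2 change was 0.09 with a 95% interval of 0.01 to 0.18 (unadjusted p = 0.0255, edgeR adjusted p = 0.122). Without shITGB5 replicate 1 it was 0.13 and passed (edgeR adjusted p = 0.0363).

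BAK1 (ENSG00000030110, chromosome 6, 33572547 to 33580293), whose product sits in the mitochondrial membrane, lay at 39.9, 40.1 and 44.3 CPM in the controls and at 41.7, 41.4 and 45.8 CPM with the hairpin. The groups overlapped almost wholly. Its log2 change was 0.05 with a 95% interval of -0.07 to 0.17 (edgeR adjusted p = 0.651).

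Among the BH3-only genes, BBC3 and PMAIP1 rose. BBC3 (ENSG00000105327, chromosome 19, 47220822 to 47232766, minus strand) encodes PUMA, which binds every pro-survival protein. It lay at 17.4, 18.3 and 14.8 CPM in the controls and at 22.2, 22.8 and 22.4 CPM with the hairpin. The hairpin libraries lay close together above all controls, and control replicate 3 was the lowest of the 6. The mean went from 16.9 ± 1.82 to 22.5 ± 0.331 CPM (SD, n = 3 each), a rise of 33.0% or 0.41 on the log2 scale with an SE of 0.088 (edgeR adjusted p = 0.000169). Without control replicate 3 the rise was 0.33 on the log2 scale, the smallest over all libraries left out in turn, and it passed in each of these fits (edgeR adjusted p of at most 0.0109).

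PMAIP1 (ENSG00000141682, chromosome 18, 59899948 to 59904306, plus strand) encodes NOXA, which binds MCL1 and promotes its degradation. It lay at 18.1, 19.9 and 19.1 CPM in the controls and at 23.9, 24.3 and 21.9 CPM with the hairpin. The groups did not overlap, with hairpin replicate 3 nearest to the controls. The mean went from 19.0 ± 0.875 to 23.4 ± 1.27 CPM (SD, n = 3 each), a rise of 22.8% or 0.30 on the log2 scale with an SE of 0.084 (edgeR adjusted p = 0.00654). Without shcontrol replicate 1 the rise was 0.26 and just missed the threshold (edgeR adjusted p = 0.0509).

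The promoter windows of BBC3 and PMAIP1, the BH3-only members that rose, differed in make-up. Each window follows 1 annotated start, and which start the Huh7 cells use was not measured. The BBC3 window (chr19:47232618-47232917, minus strand), whose start lies 1473 bases upstream of that of the principal GENCODE transcript, is 48.0% G and C and holds 1 AP-1 match and 1 E-box, which 7.71% and 7.26% of promoters have. The PMAIP1 window (chr18:59899746-59900045, plus strand), whose start lies 48 bases from that of the principal transcript, is 71.3% G and C and holds 4 GC boxes and 1 core of the cAMP response element, the latter found in 7.98% of promoters. None of the 8 windows held the CHOP and ATF4 composite letters, which 0.866% of promoters have.
BBC3 promoter: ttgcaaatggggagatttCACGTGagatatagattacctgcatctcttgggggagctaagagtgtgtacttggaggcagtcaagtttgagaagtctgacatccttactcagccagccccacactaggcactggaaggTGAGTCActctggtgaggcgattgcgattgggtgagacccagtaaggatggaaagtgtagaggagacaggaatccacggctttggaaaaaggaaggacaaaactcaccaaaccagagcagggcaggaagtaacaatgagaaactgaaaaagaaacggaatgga
PMAIP1 promoter: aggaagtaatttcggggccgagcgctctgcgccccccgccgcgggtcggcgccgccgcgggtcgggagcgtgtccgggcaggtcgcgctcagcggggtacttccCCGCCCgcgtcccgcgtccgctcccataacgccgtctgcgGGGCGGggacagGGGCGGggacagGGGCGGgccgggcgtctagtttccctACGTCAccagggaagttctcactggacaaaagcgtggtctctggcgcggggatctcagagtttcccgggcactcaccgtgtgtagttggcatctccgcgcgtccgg

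BCL2L11 and BID fell, both by less than BCL2L1, BBC3 or PMAIP1 rose. BCL2L11 (ENSG00000153094, chromosome 2, 111119378 to 111168447, plus strand) encodes BIM, which can bind all pro-survival proteins and activate BAX directly. It lay at 84.7, 79.0 and 80.9 CPM in the controls and at 74.7, 71.2 and 72.5 CPM with the hairpin. All hairpin libraries lay below all controls. The mean went from 81.5 ± 2.88 to 72.8 ± 1.78 CPM (SD, n = 3 each), or 10.7% lower, and the log2 change was -0.16 (SE 0.046, edgeR adjusted p = 0.00588). The change was -0.14 and missed the threshold without shcontrol replicate 1 (edgeR adjusted p = 0.0704), and limma on log2(FPKM + 1) gave an adjusted p of 0.0542.

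BID (ENSG00000015475, chromosome 22, 17734138 to 17774770, minus strand), whose protein links death receptors to mitochondria after cleavage by caspase-8, lay at 81.8, 85.1 and 77.9 CPM in the controls and at 73.1, 75.0 and 73.9 CPM with the hairpin. The groups did not overlap, but control replicate 3 at 77.9 CPM was close to hairpin replicate 2 at 75.0 CPM. The mean went from 81.6 ± 3.56 to 74.0 ± 0.962 CPM (SD, n = 3 each), or 9.40% lower, and the log2 change was -0.14 (SE 0.046, edgeR adjusted p = 0.0195). This call missed the threshold with shcontrol replicate 1 left out (edgeR adjusted p = 0.0534), with shcontrol replicate 2 left out (0.159), with shITGB5 replicate 1 left out (0.0684), with shITGB5 replicate 3 left out (0.0551), with no low-count filter (0.0523) and in limma on log2(FPKM + 1) (0.0701).

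The windows of the BH3-only members that fell were both rich in G and C. The BCL2L11 window (chr2:111120664-111120963, plus strand), whose start is that of the principal GENCODE transcript, is 74.7% G and C with 3 GC boxes. The BID window (chr22:17774420-17774719, minus strand), with a start 453 bases upstream of that of the principal transcript, is 71.7% G and C with 4 GC boxes. GC boxes were in the windows of PMAIP1, which rose, and of BCL2L11 and BID, which fell. They were in 6 of the 8 members' windows in all, where 45.0% of promoters have the GC box. A link between GC boxes and the changes was not tested.
BCL2L11 promoter: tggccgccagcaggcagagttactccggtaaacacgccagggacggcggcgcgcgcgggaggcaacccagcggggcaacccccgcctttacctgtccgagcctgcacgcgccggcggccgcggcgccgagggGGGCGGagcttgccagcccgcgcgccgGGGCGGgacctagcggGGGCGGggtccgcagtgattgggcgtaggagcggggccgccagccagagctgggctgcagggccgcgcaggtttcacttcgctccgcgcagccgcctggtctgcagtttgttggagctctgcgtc
BID promoter: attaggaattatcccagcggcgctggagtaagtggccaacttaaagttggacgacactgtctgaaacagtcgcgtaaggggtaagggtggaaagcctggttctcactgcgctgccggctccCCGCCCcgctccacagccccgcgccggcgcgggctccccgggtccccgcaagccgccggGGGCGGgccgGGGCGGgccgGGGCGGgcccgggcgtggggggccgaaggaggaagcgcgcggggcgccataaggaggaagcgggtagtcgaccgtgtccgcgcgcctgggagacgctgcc

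BIK and BAD did not pass the test. BIK was measured with little precision (SE 0.22 on the log2 scale), while the SE of BAD was 0.105, against 0.088 for BBC3. BIK (ENSG00000100290, chromosome 22, 43110748 to 43129712), a BH3-only protein of the endoplasmic reticulum, was the lowest member, with 51 to 64 counts in the control libraries and 42 to 60 with the hairpin. It lay at 3.67, 3.04 and 3.54 CPM in the controls and at 2.39, 3.63 and 2.39 CPM with the hairpin, so that hairpin replicate 2 fell within the range of the controls and the other two lay below it. Its log2 change of -0.29 had a 95% interval of -0.73 to 0.14 (edgeR adjusted p = 0.447), wide enough to hold falls larger than those of BID and BCL2L11.

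BAD (ENSG00000002330, chromosome 11, 64269830 to 64284704), which binds BCL-XL unless it is phosphorylated and held by 14-3-3 proteins, lay at 12.4, 13.2 and 13.9 CPM in the controls and at 12.6, 14.2 and 15.3 CPM with the hairpin. The groups overlapped, and the log2 change was 0.09 with a 95% interval of -0.12 to 0.30 (edgeR adjusted p = 0.665). BAD shares 404 of its 1708 exon bases with GPR137 on the opposite strand, whose counts equal 254% of those of BAD, and whose own log2 change was -0.15 (edgeR adjusted p = 0.112). Whether the counting used strand is not stated, so reads of BAD and GPR137 cannot be told apart in these bases.

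Similar overlaps touch 2 of the members that moved. BCL2L11 shares 727 of 6658 exon bases with the noncoding gene MIR4435-2HG on the opposite strand, whose counts equal 35.0% of those of BCL2L11. MIR4435-2HG had a mean of 26.8 CPM in the control group and of 27.2 CPM in the shITGB5 group (edgeR adjusted p = 0.915). BCL2L1 shares 1424 of 3314 exon bases with its antisense gene ABALON, named after its values were seen, whose counts equal 4.32% of those of BCL2L1 and which lay at 9.43 ± 0.937 and 11.3 ± 0.580 CPM (edgeR adjusted p = 0.134).

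**Figure D2:**
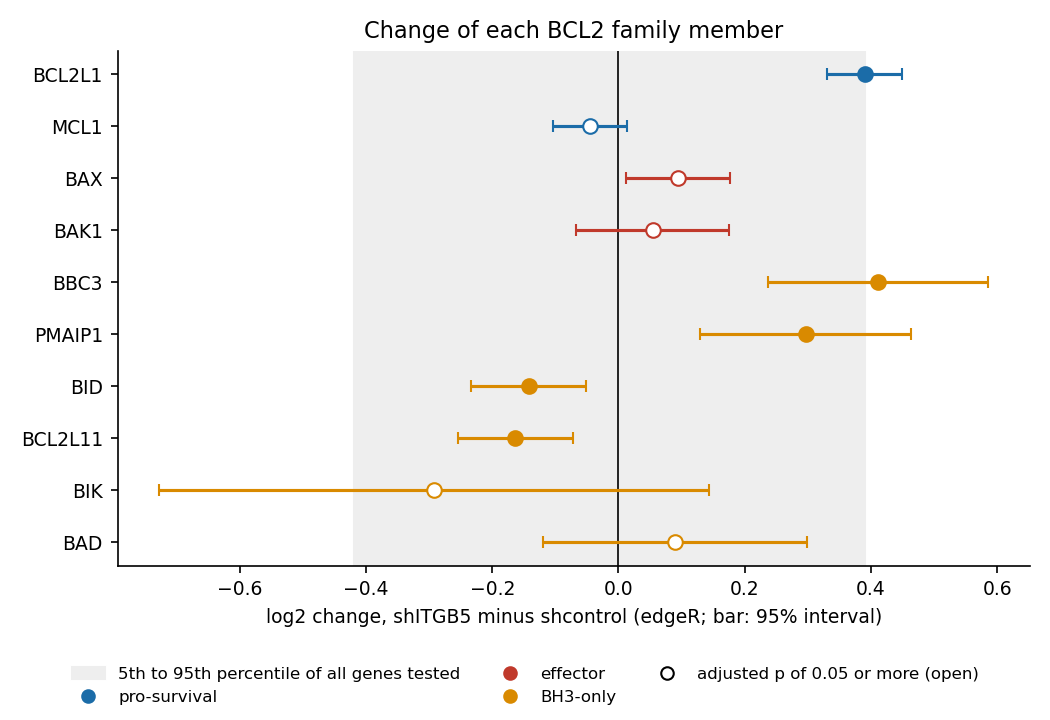
Change of each member on the log2 scale, shITGB5 minus shcontrol, with its 95% interval; filled points passed the test, open points did not, and the grey band spans the 5th to 95th percentile of all genes tested (-0.42 to 0.39). BBC3 (0.41) and BCL2L1 (0.39) lie at or past the upper edge of the band, and the other 8 members lie within it.

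Levels of different genes were compared per length, as FPKM, the fragment count scaled to gene length and library size, with the gene length given in the table. In the controls the order was BCL2L1 (62.8 ± 1.18 FPKM), MCL1 (60.5 ± 0.819), BAX (38.1 ± 0.557), BAK1 (18.7 ± 1.14), BID (18.4 ± 0.801), BCL2L11 (12.3 ± 0.432), PMAIP1 (8.52 ± 0.392), BAD (7.72 ± 0.453), BBC3 (5.30 ± 0.572) and BIK (3.59 ± 0.349), each as mean ± SD of 3 libraries. The ranges of BAK1 and BID overlapped in the controls, as did those of PMAIP1 and BAD, while BCL2L1 was above MCL1 in each of them. With the hairpin, BCL2L1 reached 82.3 ± 1.11 FPKM and MCL1 stood at 58.6 ± 2.24 FPKM, and BAK1 (19.4 ± 1.12) was above BID (16.6 ± 0.216) in every library. PMAIP1 (10.46 ± 0.566 FPKM) and BCL2L11 (10.9 ± 0.267 FPKM), apart in the controls, overlapped with the hairpin.

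Pro-survival members made up 52.3% ± 0.0734 of the summed FPKM of the 10 genes in the controls and 54.8% ± 1.35 with the hairpin (SD, n = 3 each). BH3-only members went from 23.6% ± 0.565 to 21.9% ± 0.599 and effectors from 24.1% ± 0.504 to 23.4% ± 1.27. These shares are given as a description with no test. BCL2L1 alone went from 26.6% ± 0.331 to 32.0% ± 0.493. The summed level of the 6 BH3-only genes was 55.7 ± 0.911 FPKM in the controls and 56.3 ± 1.29 FPKM with the hairpin by these lengths. These sums and shares cover the 10 members only. They leave out BCL2L2, BOK and the BH3-only gene BMF, which stood at 18.6 FPKM in the controls and 20.1 FPKM with the hairpin.

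These levels depend on the length used. With the length of 1 principal GENCODE transcript per gene, BAX (793 bases in place of 2587) became the highest member at 124.4 ± 1.82 FPKM in the controls, and BCL2L11 rose in the order to 53.6 ± 1.89 FPKM. BCL2L1 was then at 79.74 ± 1.5 FPKM in the controls and 104.5 ± 1.40 FPKM with the hairpin, and MCL1 at 67.3 ± 0.910 and 65.2 ± 2.49 FPKM. The pro-survival share was then 35.8% ± 0.217 and 38.6% ± 1.30. The summed level of the BH3-only genes was then 120.2 ± 1.93 FPKM in the controls and 116.8 ± 0.871 FPKM with the hairpin, lower rather than alike, and the effector share was 35.0% ± 0.490 and 34.8% ± 1.6. By the principal transcript lengths BID (32.7 ± 1.43 FPKM in the controls, 29.64 ± 0.386 with the hairpin) stood above BAK1 (19.39 ± 1.18 and 20.1 ± 1.16). BAD (11.4 ± 0.669 FPKM) then stood above PMAIP1 (9.77 ± 0.449) in the controls. The fold change of a single gene is the same with either length, but sums and shares over several genes are not. Several places in the order, those of BAX, BCL2L11, BAK1, BID, PMAIP1 and BAD among them, are not settled by gene counts.

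**Figure D3:**
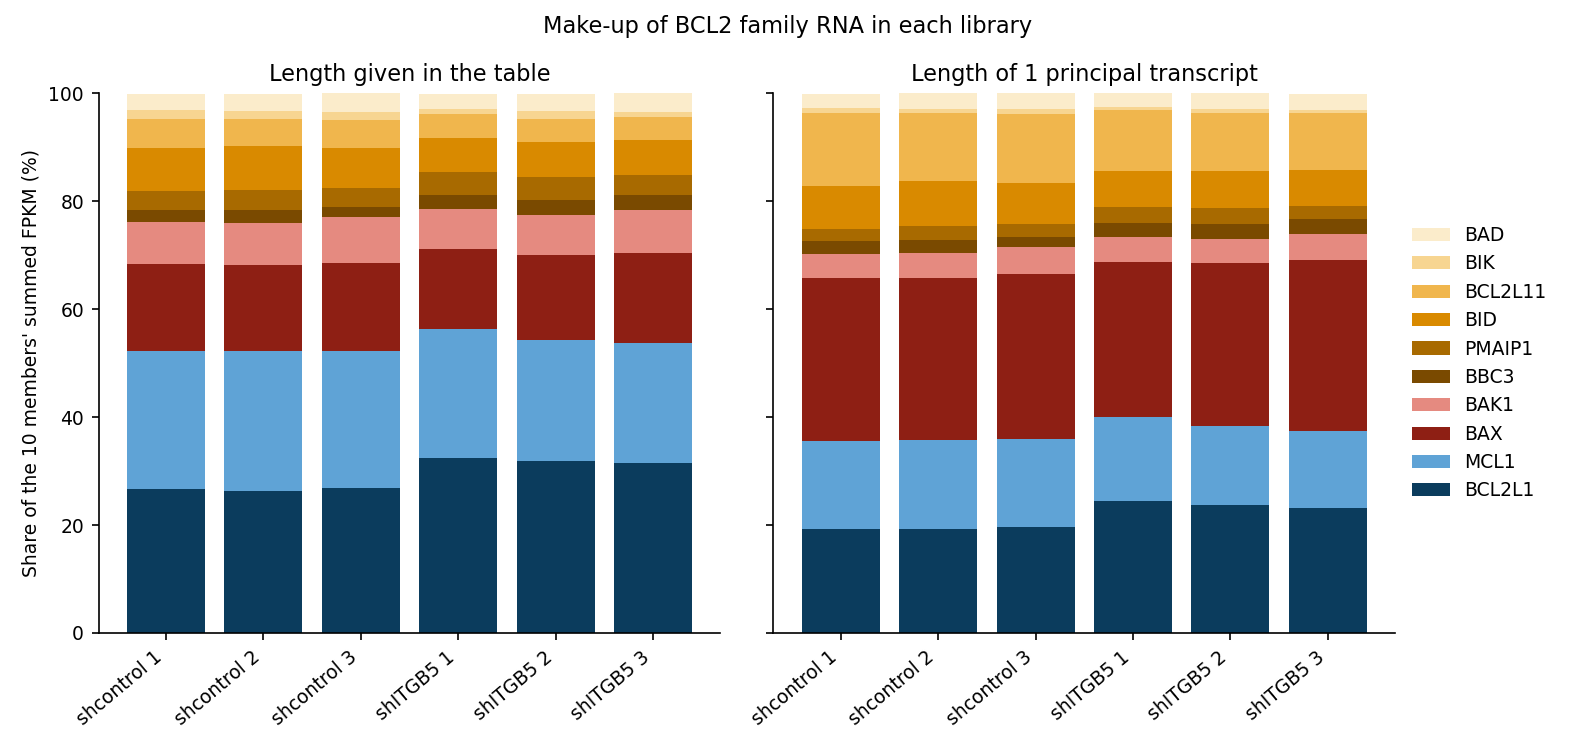
Share of each member in the summed FPKM of the 10 members in every library, in percent, with the length given in the table (left) and with that of 1 principal transcript (right). The BCL2L1 segment is larger in all 3 shITGB5 libraries than in all 3 shcontrol libraries in both panels, and the BAX segment is larger on the right.

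Of the other genes of the family, 4 were below the low-count filter and 3 were tested. BCL2 itself had 1 to 13 counts a library, BCL2A1 0 to 4, and HRK, a BH3-only gene, 0 to 3, and BCL2L10 was at 0 in all 6 libraries. A count of 0 still allows 0.167 to 0.190 CPM at these totals, for counting error only. BCL2L2, which encodes the pro-survival BCL-W, averaged 36.02 ± 1.65 CPM in the control group and 38.8 ± 2.08 CPM in the shITGB5 group (SD, n = 3 each, edgeR adjusted p = 0.305). BOK, another effector-like gene, lay at 10.6 ± 0.675 and 10.9 ± 1.05 CPM (edgeR adjusted p = 0.882).

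BMF, a BH3-only gene whose product is tied to the actin-myosin cytoskeleton, rose from 101.3 ± 2.45 to 109.7 ± 3.01 CPM, a log2 change of 0.11 (edgeR adjusted p = 0.0360). Its groups did not overlap, and with a mean of 19.4 FPKM it stood near BAK1 and BID by the table's lengths. The call was lost when any 1 of 4 libraries was left out, namely replicates 2 and 3 of shcontrol and replicates 1 and 3 of shITGB5 (edgeR adjusted p of 0.118 to 0.158), and in limma on log2(FPKM + 1) (0.110).

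Of 8 proteins with partial homology to BCL2, 1 fell, none rose and 6 did not pass, with 1 below the low-count filter, where 6.96% of all genes tested fell. BNIP3L, a mitophagy receptor, fell from 82.3 ± 1.24 to 72.6 ± 2.84 CPM (log2 change -0.18, edgeR adjusted p = 0.00190), and shares 330 exon bases with PNMA2, whose counts equal 64.1% of its own. The list's median log2 change was 0.01, against 0.00 for all genes tested.

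CYCS, which encodes the cytochrome c that the pores release, rose from 253.1 ± 6.47 to 307.5 ± 4.48 CPM (0.28, edgeR adjusted p = 1.44e-14). It was named as a called gene of a list whose results are not reported here, and does not stand for that list. CYCS has 40 pseudogenes in the table, with counts equal to 1.90% of its own, so reads shared with them are uncertain.

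Of 8 mitochondrial and endoplasmic reticulum membrane partners, 2 fell and 6 did not pass (median log2 change -0.05), where 6.96% of all genes tested fell. VDAC2, a channel that holds BAK at the mitochondrial membrane, fell from 152.7 ± 4.59 to 139.1 ± 2.65 CPM (-0.13, edgeR adjusted p = 0.00306). TMBIM6, the BAX inhibitor-1 of the endoplasmic reticulum, fell from 744.4 ± 8.08 to 690.0 ± 4.63 CPM (-0.11, edgeR adjusted p = 0.000105). Of 5 genes for the ubiquitination of MCL1, USP9X, a deubiquitinase that stabilises MCL1, fell from 398.1 ± 5.82 to 370.6 ± 7.26 CPM (-0.10, edgeR adjusted p = 0.00206) and 4 did not pass (median -0.05), and USP9X missed the threshold in limma on log2(FPKM + 1) (adjusted p = 0.0726).

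Of 14 kinases of BAD and 14-3-3 proteins, 4 rose, 1 fell and 9 did not pass, with a median log2 change of 0.02, where 8.54% of all genes tested rose and 6.96% fell. SFN, which encodes 14-3-3 sigma, rose from 27.9 ± 1.33 to 38.7 ± 1.52 CPM (0.47, edgeR adjusted p = 1.31e-08), and YWHAH, 14-3-3 eta, from 180.6 ± 3.86 to 205.3 ± 2.62 CPM (0.18, edgeR adjusted p = 2.25e-06). AKT1, a kinase of BAD, rose from 74.9 ± 1.74 to 82.3 ± 3.33 CPM (0.14, edgeR adjusted p = 0.0252), but missed the threshold when any 1 of 4 libraries was left out, namely replicates 1 and 2 of either group (edgeR adjusted p of 0.0707 to 0.127), and in limma on log2(FPKM + 1) (0.168). The gene that fell was YWHAQ, 14-3-3 theta, named after its values were seen (-0.09, edgeR adjusted p = 0.00853, lost without shcontrol replicate 2 at 0.0794 or shITGB5 replicate 3 at 0.0536).

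Transcription factors known to act on BCL2 family genes included 5 of 12 that rose, none that fell and 7 that did not pass, with a median log2 change of 0.135. Over all genes tested 8.54% rose, 6.96% fell and the median was 0.00, and the difference of the list from them was not tested. ATF3 rose from 49.3 ± 0.994 to 66.7 ± 1.77 CPM (0.43, edgeR adjusted p = 1.65e-11) and JUN from 155.4 ± 10.0 to 199.4 ± 9.89 CPM (0.36, edgeR adjusted p = 8.22e-13). DDIT3, which encodes CHOP, rose from 11.8 ± 0.919 to 15.9 ± 1.31 CPM (0.43, edgeR adjusted p = 0.00101), but shares 355 exon bases with MARS on the opposite strand, which carries far more counts (2010% of those of DDIT3).

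**Figure D4:**
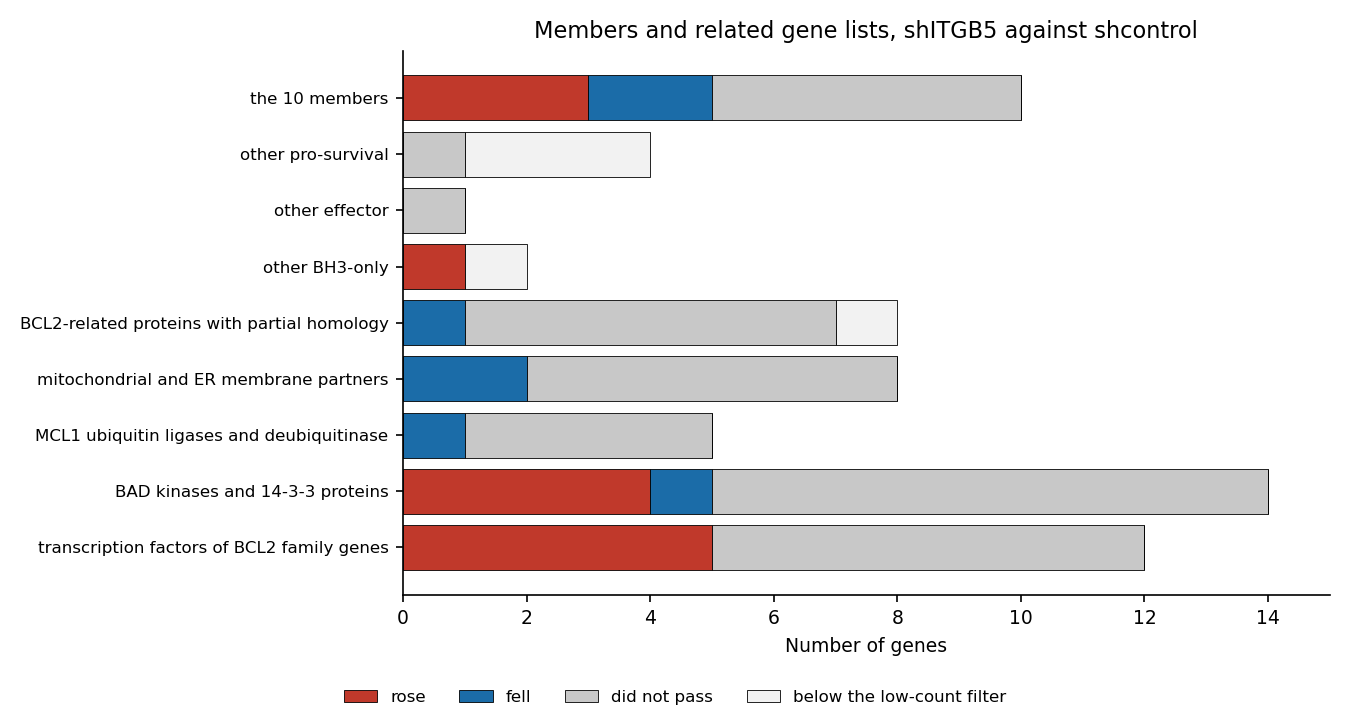
Number of genes that rose, fell, did not pass the test or lay below the low-count filter, for the 10 members and for 8 related lists. The 12 transcription factors hold 5 that rose and none that fell, and the 10 members hold calls in both directions.

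The genes whose levels over the 6 libraries were most like those of BCL2L1 and BBC3, the members with the smallest adjusted p, were sought among 10152 protein-coding genes whose mean log2 CPM reached 3 or more. For BCL2L1 these were ANKRD1 (Pearson r 0.999), FRAT2 (0.998) and LYPD6 (0.998), with log2 changes of 0.67, 0.38 and 0.68. For BBC3 they were MAFF (0.995), AFF3 (0.995) and MRPL33 (0.994), with log2 changes of 0.36, 0.16 and 0.32. The 6 libraries fall into 2 groups, which these correlations share, and they are given as a description. AFF3 missed the threshold without any 1 library except shcontrol replicate 2 (edgeR adjusted p of 0.0517 to 0.196) and MRPL33 without shcontrol replicate 3 (0.0578). MRPL33 also shares 324 exon bases with BABAM2 on the same strand, whose counts equal 86.5% of its own.

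The 3′ untranslated regions of the members were searched for 4 words of 7 bases that an earlier analysis of these data linked to genes that fell or rose. The words of the former kind are AGACCAA and, shifted by 1 base, GACCAAA, and those of the latter kind are TCGGAGA and, likewise shifted, CGGAGAA. The principal transcript of none of the 10 members holds any of them, against 17.9% of 13353 tested protein-coding genes that hold at least 1. Among 10 genes such a share amounts to few, and the difference was not tested. Among all annotated transcripts with a stop codon, CGGAGAA occurs after the stop in 8 of 23 of BCL2L11, which fell, and no other member holds a word. Only 17 transcripts of BCL2L11 are annotated as protein-coding, so some of the 23 are of other types. Whether the 8 are among these was not examined. For BCL2L1, BBC3 and PMAIP1, which rose, 3, 4 and 2 transcripts with a stop codon were searched.

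**Figure D5:**
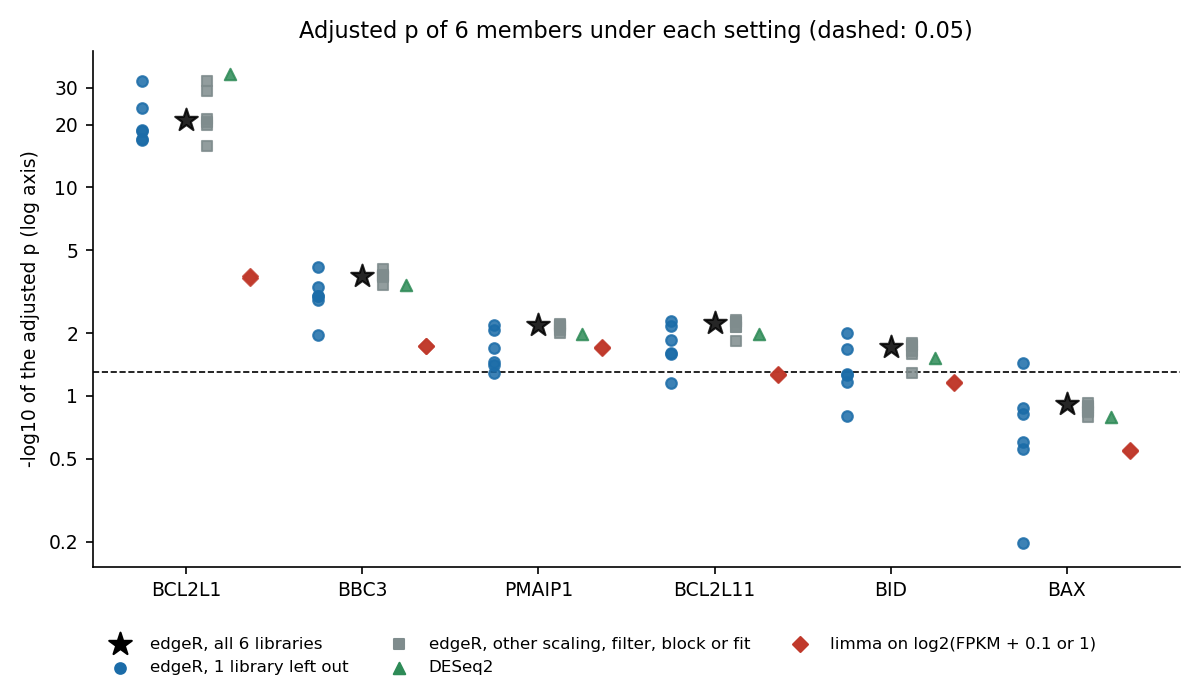
Size of −log10 of the adjusted p (log axis) for the 5 members that passed and for BAX, under each test, scaling, filter and set of libraries; the dashed line is 0.05. BCL2L1 and BBC3 lie above the line in every setting, PMAIP1 in all but 1, and BCL2L11 and BID on both sides of it.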

How the data were processed

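Libraries of Huh7 RNA were prepared from 1.3 ug each with a strand-marking kit, per the labels' protocols. The authors deposited whole-number counts per gene in a table named for FPKM; 100% of its values were whole, and the sources used here name no aligner, counter, build or strand setting. All 58735 genes had the identifier and position of GENCODE 29 (GRCh38), and 27 symbols written as dates were read through the identifiers. Counts were analysed with edgeR 4.0.16 (R 4.3.3): filterByExpr, TMM factors of 0.998 to 1.00, robust quasi-likelihood fit, 2 groups with no covariate, two-sided p adjusted by Benjamini-Hochberg over 16577 genes, threshold 0.05. Levels are CPM, and FPKM was computed here from counts and lengths. Log2 CPM for correlations had a prior count of 2. Totals of 15777922 to 18011313 counts set the precision.

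The members and lists were chosen with earlier results of these data known, so no test over a list is given; lists are described by counts and medians. Named were the members, ITGB5, the other family genes, up to 3 called genes per list with the largest change, genes overlapping a member with at least 10% of its counts, and 3 genes most like each of the 2 members with the smallest adjusted p. Alternatives were DESeq2 1.42.0, limma 3.58.1 on log2(FPKM + 1) and log2(FPKM + 0.1), other scalings and filters, the replicate block and each library left out; a fit without robust estimation and principal transcript lengths were chosen after seeing the data. The fits were also run on simulated counts, drawn with the spread between libraries estimated from these data. Such counts cannot show whether the libraries of a group are independent. No pair of libraries in a group was identical, and each pair differed by more than sampling noise (chi-square per degree of freedom 2.02 to 2.32). The results of 2 related lists are not reported here.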

Additional observations from a re-analysis of the deposited data

How the results depend on the processing

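In place of 2569 genes called, limma called 1380 (756 rose, 624 fell) on log2(FPKM + 1) and 1381 on log2(FPKM + 0.1), and in place of 5 members it called 3 in both, without BID and BCL2L11; the cause was not tested. Leaving out 1 library gave 2043 to 2238 genes and 2 to 5 members, with 2 (BCL2L1 and BBC3) only without shcontrol replicate 1. Of the members' values under the alternatives, 137 stayed on their side of the threshold with the same direction, 11 lost the call, 1 (BAX) gained it and none changed direction; DESeq2 gave no adjusted p for BIK. The direction turned for BOK and MIR4435-2HG, neither of which had passed: BOK ranged from -0.0398 to 0.0879 and MIR4435-2HG from -0.0183 to 0.0803 when 1 library was left out. With principal transcript lengths, shares of summed FPKM in controls and hairpin libraries were 35.8% and 38.6% for pro-survival members, 35.0% and 34.8% for effectors, and 29.2% and 26.6% for BH3-only members. The replicate block called 2499 genes and the same number of members, 5. Same-numbered libraries did not deviate together (correlations 0.028, -0.000125 and -0.0174, under the 0.1 asked for), and not every library was most like its own number. At these depths a member such as BIK, with 42 to 64 counts a library, allows only wide intervals.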
